A study of Homo sapiens with 12 samples.

Results

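Accessible chromatin at the starts of protein-coding genes was examined in HCT116 cells, an established line from a poorly differentiated human colorectal carcinoma. A region was taken as a gene start where it lay on an autosome and overlapped 1000 bases either side of a transcription start of a protein-coding gene in GENCODE release 44. The loci of the 2 introduced genes were left out. The rule found 11767 of the 30170 counted regions, or 39.0%. It used position only and no measured value. Of the other regions, 10175 lay elsewhere in annotated genes and 7507 outside them. Each region is called by the protein-coding gene whose start was nearest to its centre.

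ATAC-seq marks open chromatin by the places where a transposase inserts sequencing adapters. It was run on 4 stable lines with 3 libraries each, 12 in all. EV cells carried an empty plasmid vector. EHF cells carried a plasmid for EHF, an ETS-family transcription factor of epithelia. CDX1 cells carried a retrovirus for CDX1, a homeobox transcription factor of the intestine, and were sorted for the linked green fluorescent protein. EHF+CDX1 cells were CDX1 cells transfected with the EHF plasmid. Lines with a plasmid were picked as geneticin-resistant clones, and how many clones made up each line is not given in the sources used here. A control with an empty retrovirus is not described either. Nothing states that libraries of a line came from separate cultures, so p-values measure the spread between these libraries, which may be technical. In such bulk samples, a region open in fewer cells and a region less open in every cell cannot be told apart.

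A gene's start is where RNA polymerase assembles with the general transcription factors. In most housekeeping genes it lies in a CpG island, a stretch rich in the CG dinucleotide that is usually unmethylated, kept clear of nucleosomes and open in many tissues. Starts without an island belong more often to genes used by few tissues, and their opening depends more on factors particular to the cell type. SP/KLF proteins, NRF1, YY1, NF-Y at the CCAAT box and several ETS factors bind at many start regions, whereas AP-1 and many homeobox factors bind largely at distal enhancers.

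The sequences below are shown because they belong to the starts on which the comparisons turn and because they span the range of composition. SHOC2 was among the most open starts over the 12 libraries. TLE4, DSEL, KLF5 and PIP5K1B were called higher in EHF+CDX1 than in EV cells, and ADAM19 was called in the interaction. Each is the stretch of the counted region that lies outside annotated exons, read 5′ to 3′ on the gene's strand from GRCh38 (hg38, the build of the files), with positions counted from 1. Capitals mark CG dinucleotides.
SHOC2, chr10:110919202-110919366, forward strand: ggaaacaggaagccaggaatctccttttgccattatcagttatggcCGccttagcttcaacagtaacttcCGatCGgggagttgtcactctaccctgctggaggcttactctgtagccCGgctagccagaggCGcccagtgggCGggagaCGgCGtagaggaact
TLE4, chr9:79571559-79571772, forward strand: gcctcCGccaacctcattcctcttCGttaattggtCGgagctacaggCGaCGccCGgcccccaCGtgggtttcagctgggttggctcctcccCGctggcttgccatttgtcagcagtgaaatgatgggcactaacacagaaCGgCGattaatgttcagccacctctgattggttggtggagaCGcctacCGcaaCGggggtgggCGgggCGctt
DSEL, chr18:67516843-67516992, reverse strand: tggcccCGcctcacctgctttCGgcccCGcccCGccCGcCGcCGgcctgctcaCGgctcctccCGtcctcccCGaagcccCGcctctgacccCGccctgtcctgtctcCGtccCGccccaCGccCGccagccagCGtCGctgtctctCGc
KLF5, chr13:73058759-73059004, forward strand: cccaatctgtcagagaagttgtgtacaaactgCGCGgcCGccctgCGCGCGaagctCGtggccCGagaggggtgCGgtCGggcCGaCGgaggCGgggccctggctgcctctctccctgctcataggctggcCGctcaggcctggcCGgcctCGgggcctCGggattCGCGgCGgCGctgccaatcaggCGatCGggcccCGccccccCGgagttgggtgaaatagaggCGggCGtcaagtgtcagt
PIP5K1B, chr9:68740707-68740856, forward strand: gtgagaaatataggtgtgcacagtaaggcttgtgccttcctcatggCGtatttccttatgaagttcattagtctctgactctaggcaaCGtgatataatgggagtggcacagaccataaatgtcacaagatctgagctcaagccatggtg
ADAM19, chr5:157575797-157575949, reverse strand: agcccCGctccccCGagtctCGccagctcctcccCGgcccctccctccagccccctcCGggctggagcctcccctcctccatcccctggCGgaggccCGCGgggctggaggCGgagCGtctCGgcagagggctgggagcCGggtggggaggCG

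The DSEL stretch held 19 CG dinucleotides in 150 bases and 3 copies of GGGCGG, the box bound by SP/KLF proteins. Boxes were counted on either strand and without overlap. The KLF5 stretch held 27 in 246 bases, with 2 such boxes and 2 CCAAT boxes. By contrast, the PIP5K1B stretch held 2 in 150 bases at a GC content of 44.7%, and it carried 1 copy of the CDX core. The SHOC2 stretch held 1 copy of the ETS core. TLE4 and ADAM19 held 15 and 13 CG dinucleotides, and neither stretch held either core. A match describes the letters and does not show that a factor bound there.

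Library totals ran from 567366 to 2443334 counts, of which 147970 to 912112 remained outside the introduced genes and outside regions matching mitochondrial DNA. Mitochondrial matches took 65.1% to 73.9% of all counts in EV libraries and 14.5% to 37.2% in the other 9. All counts here include those of the introduced genes, which lower the mitochondrial share where they are many. In CDX1 replicate 3, with the lowest share, 171383 of 2443334 counts remained outside both. EHF+CDX1 replicate 2 was the deepest library by the counts outside both, with a median of 26 counts per gene start against 4 to 14 in the others, and it had 4 gene starts at 0 counts against up to 1010 elsewhere. Levels below are counts scaled to a common library size (CPM) after TMM adjustment, or CPM per kb where regions are compared with each other, except in the measures taken per library. A count of 3 was taken as the floor, which is 0.677 CPM in the deepest library and 4.51 CPM in EV replicate 3. Intervals and floors cover counting error only. As a check of the cell type, 9 of 10 epithelial colorectal marker genes had a region at their start, against 2 of 29 markers of blood, endothelial, stromal, neural and other cells, COL1A1 and COL1A2. The summed level at these 2 genes was 9.14 to 19.2 CPM in all libraries.

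The gene starts came from 8298 genes by nearest start, of which 5649 had 1 region and 631 had at least 3. Of the gene starts, 2003 regions lay within reach of the starts of 2 or more genes, and 1688 (14.3%) had starts on both strands, so for these the gene given is a label and not an assignment. Regions were 150 to 761 bases long, with a median of 164. Their centres lay 40 bases upstream of the nearest start at the median, 57.8% within 100 bases of it and 82.1% within 300. By annotation, 67.5% touched an exon, 14.8% were intronic and 17.7% were upstream of the gene.

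Sequence separated gene starts from the remaining regions. The median GC content was 63.8% against 45.8%, and the median ratio of observed to expected CG was 0.802 against 0.238. A region was called CpG-rich where the surrounding 500 bases had a ratio of at least 0.6 and a GC content of at least 50%. This held for 9526 gene starts (81.0%) and for 9.21% of the remaining regions. Coverage of the annotated starts followed the same division. Of 19040 genes, taking the main start of each, 44.8% had a counted region there, but the share was 60.4% for the 12966 CpG-rich starts and 11.49% for the 6074 CpG-poor starts.

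Short motifs were counted on both strands in regions of 150 bases (5122 of the gene starts), so that length could not differ. SP/KLF boxes stood in 51.7% of gene starts, against 9.72% of regions elsewhere in genes and 8.19% outside genes, and in 47.0% of windows of the same length at all annotated starts. The ETS core (AGGAAGT or CGGAAGT) stood in 10.0% of gene starts, against 7.20% and 7.48%, and in 11.3% of annotated starts. The CDX core (TTTATT or TTTATG) was rarer at gene starts, in 5.62% against 22.9% and 23.7%, and stood in 6.79% of annotated starts. The AP-1 motif (TGACTCA) showed the same order, with 4.92% against 21.2% and 18.6%. The CCAAT box barely differed, at 17.7%, 18.8% and 18.9%, but over regions of all lengths it stood in 30.3% of gene starts, against 20.9% and 20.9%. TATAAA stood in 2.21% of gene starts, against 7.19% and 8.90%, and its reverse complement shares letters with the CDX core. The YY1 motif (AAGATGGCG), the CRE (TGACGTCA) and the NRF1 motif were rarer still but more frequent at gene starts than elsewhere. They stood in 1.35%, 1.56% and 0.918% of gene starts, against 0.189%, 0.219% and 0.0583% of regions elsewhere in genes and 0.102%, 0.325% and 0.122% outside genes.

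**Figure D1:**
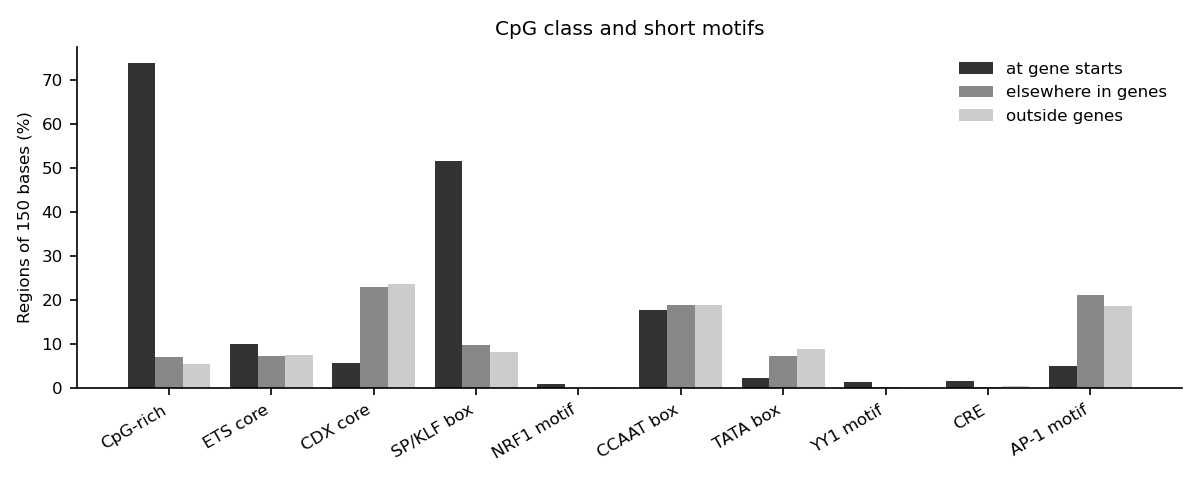
Share (%) of 150-base regions that were CpG-rich or held each motif on either strand, for regions at gene starts (dark), elsewhere in genes (mid grey) and outside genes (light). CpG-rich sequence and SP/KLF boxes stood at 73.9% and 51.7% of gene starts, whereas the CDX core and the AP-1 motif were several times rarer there than in the remaining regions.

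Gene starts were the more open class of region. Their median level was 34.3 CPM per kb (10th to 90th percentile 18.7 to 56.9), against 22.6 elsewhere in genes and 23.1 outside genes. CpG-rich starts had a median of 36.0 and CpG-poor starts of 26.7 CPM per kb. Starts with a CCAAT box had a median of 40.4, against 31.8 without, and starts with an ETS core had 38.3, against 33.6 without. Starts with a CDX core had 33.7, against 34.3 without. These medians are over regions of all lengths that share 12 libraries and are given without a test.

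Most gene-start counts lay close to the start in all lines, where most regions lay. Regions centred within 100 bases of a start took 60.1% to 61.3% of the gene-start counts of every library, those at 100 to 300 bases 26.2% to 27.6%, and those beyond 300 bases 11.9% to 13.2%. The median level fell from 36.1 to 34.8 and then 27.8 CPM per kb over these distances, and the CpG-rich share from 87.3% to 83.9% and 56.5%. In steps of 100 bases, the median level was highest 100 to 200 bases upstream (38.2 CPM per kb over 1635 regions), above the 100 bases before the start (36.7 over 5168) and the 100 after it (34.2 over 1632).

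**Figure D2:**
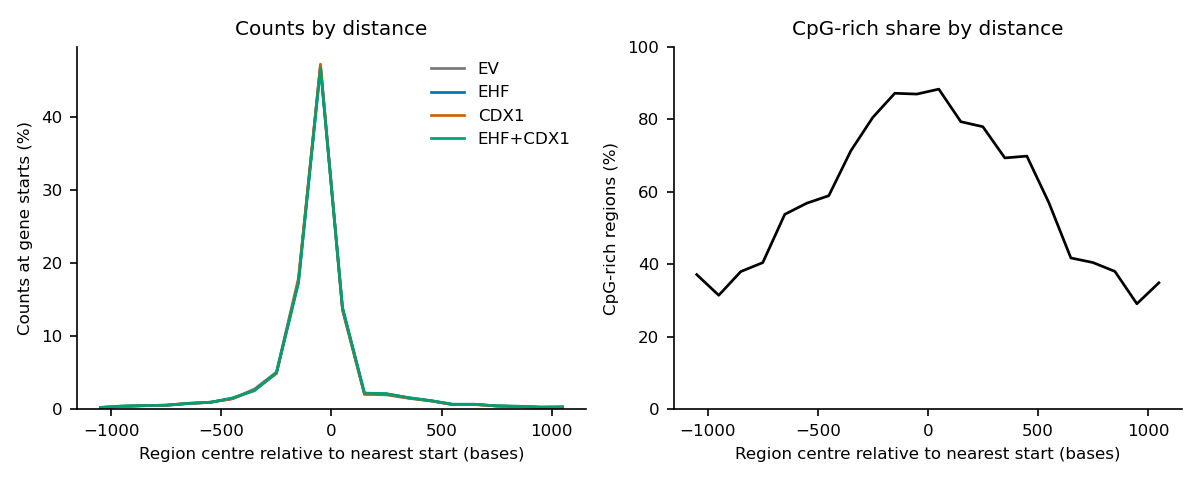
Left, share (%) of all gene-start counts by distance of the region's centre from the nearest start in bases, in steps of 100, for each line (negative is upstream). Right, share (%) of CpG-rich regions by the same distance. The curves of the 4 lines lie on each other and peak in the 100 bases just upstream of the start, where 46.7% to 47.2% of the counts and 5168 of the regions lay.

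The highest levels were at ENY2 (207 CPM per kb), a subunit of the SAGA and nuclear export complexes, CNGA4 (204), SHOC2 (203), a scaffold of RAS-MAPK signalling, and APBB2 (203), an adaptor of the amyloid precursor protein. SLC25A32, POLR2J3, RBIS, TMEM70, G3BP1 and FH followed, from 188 to 158. The assay counts DNA fragments, so DNA copies also enter these levels, and their part was not tested. CNGA4, a subunit of an olfactory cation channel, shares its region with FHIP1B on the other strand, and ENY2 shares its own with NUDCD1. At SHOC2 the levels were 35.1, 58.7 and 42.1 CPM in EV and 29.1, 25.7 and 34.9 in EHF+CDX1 libraries, with 44.8, 60.1 and 48.4 in EHF and 47.1, 62.2 and 59.1 in CDX1 libraries. All 3 EHF+CDX1 values lay below those of the other 9 libraries, yet the change from EV, -0.62 on the log2 scale (SE 0.41), did not pass the test (adjusted p = 0.400, edgeR's quasi-likelihood test). SHOC2 lies on chromosome 10 between 100 and 120 Mb, where the 140 gene starts had a median change of -0.56 in this comparison. Of these 10 starts, APBB2 alone was called in EHF+CDX1 against EV.

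The share of counts at gene starts was compared first, as it asks whether starts as a class gained or lost weight. It was 37.8%, 39.3% and 38.3% in the EV libraries, 42.7%, 46.4% and 47.1% in those of EHF, 40.8%, 46.0% and 42.6% in those of CDX1, and 42.2%, 41.9% and 47.9% in those of EHF+CDX1 cells. The widest 95% Wilson interval, in EV replicate 3, was 38.0% to 38.5%. Each of the 9 libraries of lines given a factor lay above all 3 EV libraries. The mean of EV cells was 38.5% ± 0.744 (SD, n = 3), that of EHF cells 45.4% ± 2.37, that of CDX1 cells 43.1% ± 2.64 and that of EHF+CDX1 cells 43.99% ± 3.35. An exact two-sided permutation test of the F statistic over the 4 groups gave p = 0.0597, or 0.239 adjusted over the 4 measures compared in this way, so the difference was not larger than the spread between libraries by this test. The denominator matters here. Over all counts, introduced genes and mitochondrial matches included, gene starts took 3.33% to 23.4%, and the mean of the lines given a factor lay 2.91 points below EV, not 5.71 above. The mitochondrial share of all counts was also highest in EV libraries, but introduced genes add to that total in the other lines. It therefore does not show more mitochondrial counts in EV for each remaining count. The part of mitochondrial matches in the result was not tested.

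The other 3 measures asked whether a kind of start moved as a class. They are means of log2 CPM without scaling for region length, and the same regions enter in every library. The ETS core stood in 14.4% of all gene starts but in 10.0% of those of 150 bases, and CpG-rich sequence in 81.0% and 73.9%. The offsets within a library can thus include region length, whose part was not tested. CpG-rich starts lay above CpG-poor starts by 0.35 to 0.74 log2 CPM in the 12 libraries, with means of 0.53, 0.61, 0.60 and 0.52 for EV, EHF, CDX1 and EHF+CDX1 cells (exact permutation p = 0.743). Starts with the ETS core, which EHF can bind as an ETS factor, lay above those without by 0.19 to 0.39, with means of 0.31, 0.36, 0.32 and 0.28 in the same order (p = 0.212, adjusted p = 0.283, exact permutation test). Starts with the CDX core differed from those without by -0.02 to 0.11, with means of 0.03, -0.01, 0.00 and 0.06 (p = 0.157, adjusted p = 0.283, exact permutation test). In all 3 measures the libraries of EHF+CDX1 cells overlapped those of EV cells. The lowest CpG and ETS values and the highest CDX value were those of EHF+CDX1 replicate 2. Without EHF+CDX1 replicate 3 the exact permutation test of the ETS measure gave p = 0.0255.

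**Figure D3:**
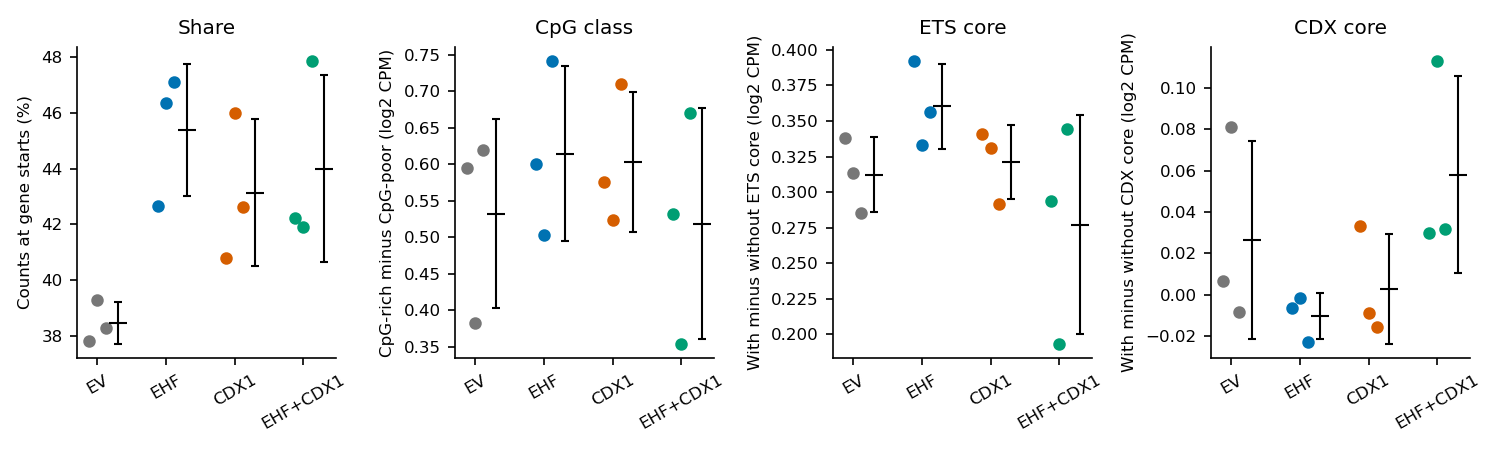
Per library, from left: counts at gene starts (% of counts outside introduced genes and mitochondrial matches), mean log2 CPM of CpG-rich minus CpG-poor starts, and of starts with minus without the ETS core and the CDX core. Points are libraries, bars the mean ± SD (n = 3). The axes do not start at 0. The 3 EV points lie lowest in the first panel, and EHF+CDX1 points overlap those of EV in the others. In the CDX core panel the EHF+CDX1 points lie above the EHF points without overlap.

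EHF+CDX1 and EV cells were compared next, region by region. Across all 30154 regions tested, 2.57% were called at an adjusted p under 0.05. Among gene starts, 122 of 11765 tested (1.04%) were called, 99 higher (0.841%, against 1.79% of all regions) and 23 lower (0.195%, against 0.779%). By place, 336 regions were called (3.30%) elsewhere in genes and 275 (3.67%) outside genes. At an unadjusted p under 0.05 the share was 10.8% of gene starts, against 19% of all regions. The groups' CPM did not overlap at 2137 gene starts (18.2%), against 22% of all regions. The median change was 0.19 at gene starts and 0.18 over all regions on the log2 scale, so the changes given below ride on a shift of about that size. By limma-trend on the deposited log2 CPM these medians were -0.03 and -0.14. CpG-poor starts were called in 40 of 2240 cases (1.79%) and CpG-rich starts in 82 of 9525 (0.861%). Starts with the CDX core were called in 14 of 679 cases (2.06%, 12 higher), and those with the ETS core in 10 of 1689 (0.592%). All 4 shares lay below that of all regions, and none of the differences between classes was tested. No more than 3 counts in any EV library were held by 24 of the 30 higher CpG-poor and 40 of the 69 higher CpG-rich starts. The same held for 10 of the 12 higher starts with the CDX core and 3 of the 7 with the ETS core. Such starts could enter the test through another line, so the shares by class are a description and not a result.

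Of the 99 higher starts, 64 held no more than 3 counts in any EV library, as did 470 of the 541 higher regions overall. The EV libraries had medians of 4 to 7 counts per gene start. Regions so low in EV could enter the test through a high level in another line, so their low EV counts are a description and not a result. TLE4, which encodes a Groucho-family co-repressor of Wnt and Notch targets, had 0, 2 and 1 counts in EV and 53, 139 and 29 in EHF+CDX1 libraries. It had 0, 0 and 5 in EHF and 0, 0 and 2 in CDX1 libraries. The EHF+CDX1 counts amount to 31.5, 31.4 and 24.1 CPM, against at most 4.57 CPM in any of the other 9 libraries. The ratio to EV was 30.4 by summed counts (95% counting interval 10.3 to 149), and the call held in 20 of 22 other settings (adjusted p = 3.43e-06, edgeR's quasi-likelihood test).

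RASEF, an atypical RAB GTPase, had 0 counts in each EV library and 13, 69 and 8 in EHF+CDX1 cells, at least 3.03-fold higher against the floor. SYT1, the calcium sensor of synaptic vesicles, had 0, 0 and 0 against 10, 72 and 4, at least 2.58-fold higher. FANCL, the ubiquitin ligase of the Fanconi anaemia complex, had 0, 0 and 0 against 7, 58 and 2, at least 1.91-fold higher. At all 3 starts every EHF+CDX1 library lay above every EV library by value. The floor, however, is 2.49 CPM in EHF+CDX1 replicate 3 and 4.51 CPM in EV replicate 3. A value of 0 in EV replicate 3 therefore cannot be placed below the 2 counts at FANCL or the 4 at SYT1 in EHF+CDX1 replicate 3. KCNV1, a modifier subunit of potassium channels, had 0, 0 and 2 counts against 29, 55 and 13, a ratio of 20.04 (5.40 to 168). DACH1, a dachshund-family transcription cofactor, had 0, 0 and 1 against 10, 73 and 6, a ratio of 36.8 (6.43 to 1469). Both had at most 1 count in each EHF and CDX1 library, apart from 4 in CDX1 replicate 2 at KCNV1.

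DSEL, related to the epimerases that build dermatan sulphate, had 1, 0 and 0 counts in EV and 10, 41 and 9 in EHF+CDX1 libraries. PIP5K1B, a lipid kinase of phosphoinositide signalling, had 0, 1 and 0 against 9, 66 and 6 at a CpG-poor region 802.5 bases upstream of its start. The remaining 4 of the 12 starts with the largest changes were PLSCR2, a phospholipid scramblase, NFKBIZ, a nuclear inhibitor-family regulator of NF-κB, and 2 alternative starts of ZNF736, a zinc finger gene. At the more strongly counted ZNF736 start the counts were 1, 0 and 0 in EV and 29, 48 and 18 in EHF+CDX1 libraries. ZNF736 belongs to a family with near-identical copies, so its counts are less certain than those of the other genes. The groups did not overlap at any of the 12, which the choice of these genes required. At FANCL, NFKBIZ and the other ZNF736 start, EHF+CDX1 replicate 3 held 2 counts, under the floor of 3, so the separation is not resolved there.

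**Figure D4:**
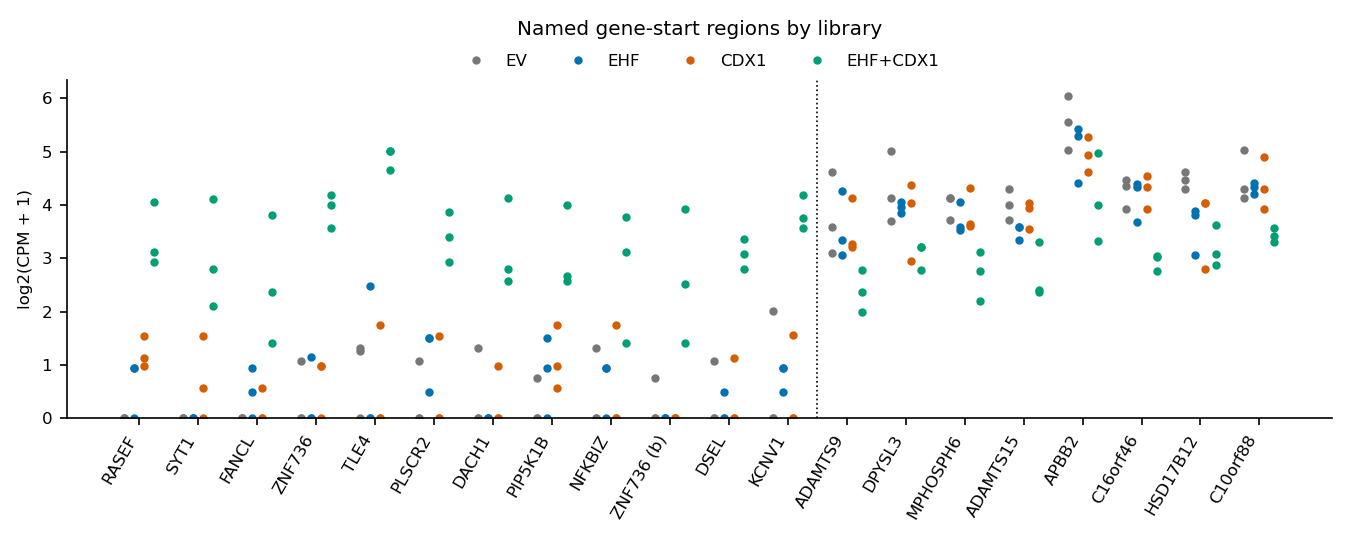
log2(CPM + 1) in each library (points, 3 per line) at the 12 gene starts with the largest rises and the 8 with the largest falls in EHF+CDX1 against EV, divided by the dotted line; (b) is another start of ZNF736. EHF+CDX1 points do not overlap EV points on either side, as the choice required, though some rest on counts under the floor of 3. EHF and CDX1 points lie mostly with EV.

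Starts that fell kept part of their signal. Only 8 of the 23 met the count minimum without overlap. ADAMTS9, a secreted metalloprotease of the extracellular matrix, had 11, 23.5 and 7.52 CPM in EV and 2.97, 5.87 and 4.15 in EHF+CDX1 libraries, a change of -1.68 (SE 0.44, adjusted p = 0.020). ADAMTS15, of the same family, had 12.1, 18.7 and 15.0 against 8.90, 4.29 and 4.15 CPM, a change of -1.45 (SE 0.43, adjusted p = 0.0395). DPYSL3, a cytoskeletal protein of migrating neurons and mesenchymal cells, had 16.5, 31.1 and 12 against 8.31, 5.87 and 8.31 CPM, a change of -1.52 (SE 0.40, adjusted p = 0.0174). All 3 lay below the EV libraries without overlap. APBB2, one of the most open starts, had 46.1, 31.8 and 64.6 CPM in EV and 30.3, 9.03 and 15.0 in EHF+CDX1 libraries, a change of -1.40 (SE 0.39, adjusted p = 0.0307). HSD17B12, a reductase of fatty acid elongation, had 18.7, 23.5 and 21.0 against 11.3, 6.32 and 7.48 CPM, a change of -1.38 (SE 0.39, adjusted p = 0.0328). MPHOSPH6, C16orf46 and C10orf88 fell by 1.49, 1.40 and 1.24 on the log2 scale. All adjusted p-values here are from edgeR's quasi-likelihood test.

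The calls rested strongly on EHF+CDX1 replicate 2. It supplied 65.4% of the EHF+CDX1 counts at the 99 higher starts, against 56.9% over all gene starts, and had the highest CPM at 55 of them. Replicates 1 and 3 lay above all EV libraries at 96 of the 99. With replicate 2 left out, all 97 starts still tested stayed higher (median change 2.66), and 96 had an unadjusted p under 0.05 by edgeR's quasi-likelihood test. These starts were chosen with replicates 1 and 3 included, so that is a description and not independent support. Without replicate 2, 9 gene starts were called, all of them among the 122. These were higher at TLE4, RASEF, PAX6, ZNF736, PLSCR2, EMC2 and both starts of KCNV1 and lower at IER3IP1. At PAX6, an eye and pancreas transcription factor, counts were 0, 0 and 0 in EV and 12, 18 and 14 in EHF+CDX1 libraries, at least 2.31-fold higher against the floor. At IER3IP1, a protein of the endoplasmic reticulum, levels were 12.1, 9.67 and 13.5 CPM in EV and 0.594, 2.48 and 2.49 in EHF+CDX1 libraries, a change of -2.50 (SE 0.56, adjusted p = 0.0044, edgeR's quasi-likelihood test). PAX6, EMC2 and IER3IP1 were singled out after these values were seen. Leaving out EV replicate 1, 2 or 3 gave 61, 20 or 46 calls, and DESeq2 called 10 of the 122 and no others.

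Gene lists of the intestine and of other processes were then read against these shares. Of 36 transcription factors of the intestine, 27 had regions at their starts, 47 in all, and 2 (4.26%) were called higher and 0 lower, against 2.57% of all regions and 1.04% of gene starts called. HNF4G, a nuclear receptor of enterocytes, had 2.20, 4.14 and 4.51 CPM in EV and 14.2, 17.2 and 15.8 in EHF+CDX1 libraries, with 7.32, 6.50 and 6.40 in EHF and 9.62, 7.24 and 3.55 in CDX1 libraries. The EHF+CDX1 values stood above all others, with a change from EV of 2.10 (SE 0.50, adjusted p = 0.00879, edgeR's quasi-likelihood test). KLF5, a factor of proliferating crypt cells, had 16.5, 11.7 and 9.02 CPM in EV and 25.5, 32.3 and 29.9 in EHF+CDX1 libraries, a change of 1.22 (SE 0.37, adjusted p = 0.0496). EHF and CDX1 libraries ranged from 16.3 to 24.8, below all EHF+CDX1 libraries and overlapping EV at one end. The KLF5 call is the less certain of the pair, since the 41 gene starts of its 20-Mb window had a median change of 0.84. The median change over the 47 regions was 0.59, against 0.18 over all regions.

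The enterocyte and brush border list had regions at 19 of 49 genes, 30 in all, with a median change of 0.58 and 0 called in EHF+CDX1 against EV (7 at an unadjusted p under 0.05, a share to be read against the 19% of all regions). KRT20, named here because the study's RNA results list it, had no region at its start and was not among the 30. Against EHF cells, 4 of the 30 (13.3%) were called higher, GUCY2C, EPS8, CDH17 and LGALS4, where 3.65% of all regions and 1.06% of gene starts were. Of the 1100 regions called higher in that comparison, 957 held no more than 3 counts in any EHF library, and CDH17 and EPS8 did too. Such regions could enter the test through a high level in another line, so the share called in this list is a description and not a result. CDH17, an intestinal cadherin, had 1, 1 and 0 counts in EV and 5, 32 and 9 in EHF+CDX1 libraries, with 1, 2 and 0 in EHF and 1, 3 and 6 in CDX1 libraries. The ratio to EHF was 9.74 by summed counts (3.13 to 48.9, adjusted p = 0.0279, edgeR's quasi-likelihood test), while the change from EV did not pass (adjusted p = 0.0713). EPS8, an actin regulator of microvilli, had 0, 1 and 0 counts in EV, 1, 0 and 0 in EHF and 7, 31 and 4 in EHF+CDX1 libraries (adjusted p = 0.0318 against EHF and 0.0867 against EV). Epithelial junction and keratin genes had 69 regions at 38 of 50 genes, a median change of 0.48 and 0 called against EV. CLDN4, a tight junction claudin, had 5.49, 3.45 and 1.5 CPM in EV, 3.66, 2.44 and 1.83 in EHF and 10.7, 12.4 and 9.14 in EHF+CDX1 libraries, and was called against EHF (change 2.04, adjusted p = 0.014) but not against EV (adjusted p = 0.0971). The summed level at the 22 regions of 9 epithelial marker genes was 87.2 to 125 CPM in EV and 139 to 193 in EHF+CDX1 libraries, without overlap, and 0 were called against EV. This separation was not particular to these markers. Sums of the enterocyte, intestinal transcription factor, junction and xenobiotic lists did not overlap either, while those of the remaining lists did.

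Stem cell and Wnt genes had 27 regions at 20 of 35 genes, with a median change of 0.27, and 0 were called. LGR5, OLFM4 and ASCL2, named here because the study's RNA results list them, had no region at their starts. The 0 calls therefore say nothing about them. Genes of mesenchymal transition had 32 regions at 22 of 52 genes, a median of 0.14, and 0 were called. Fatty acid metabolism had 61 regions at 43 of 53 genes and a median of 0.23. Of these, 2 (3.28%) were called. HSD17B12 was lower and DECR1, a reductase of mitochondrial fatty acid oxidation, was higher, with 3.29, 8.29 and 3.01 CPM in EV and 20.8, 16.3 and 15.0 in EHF+CDX1 libraries (change 1.67, SE 0.44, adjusted p = 0.0182, edgeR's quasi-likelihood test). DECR1 stood at 10.1 to 20.2 CPM in the EHF and CDX1 libraries too, all above EV. Oxidative phosphorylation had 78 regions at 63 of 78 genes, a median of 0.16, and 0 were called. Xenobiotic metabolism had 49 regions at 30 of 75 genes and a median of 0.33, and MGST1, a microsomal glutathione transferase, was called (2.04% of the list), with 0, 1 and 0 counts in EV and 10, 37 and 5 in EHF+CDX1 libraries (ratio 21.5, counting interval 3.69 to 865). The mesenchymal, fatty acid, oxidative phosphorylation and xenobiotic themes, and markers such as CDH17, come from the study's own RNA results in the same lines and are not independent evidence of a direction.

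Among cell cycle and replication genes, with 96 regions at 61 of 76 genes and a median change of 0.26, E2F7, an atypical repressor of the E2F family, was called higher (1.04% of the list). Its levels were 6.59, 5.53 and 9.02 CPM in EV and 16.6, 20.8 and 24.9 in EHF+CDX1 libraries (change 1.60, SE 0.42, adjusted p = 0.0187, edgeR's quasi-likelihood test), and EHF and CDX1 libraries ranged from 8.23 to 20.7. Ribosomal protein genes (71 regions, median 0.23) and interferon and antigen presentation genes (42 regions, median 0.09) had 0 calls. No list held more than 2 called regions in this comparison, and no list was tested as a set.

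Changes of gene starts in EHF+CDX1 cells differed from chromosome to chromosome. The median change from EV ran from -0.31 on chromosome 10 and -0.24 on chromosome 16 to 0.56 on chromosome 13, a range of 0.87 over 22 chromosomes. The same range was 0.20 in EHF against EV and 0.16 in CDX1 against EV. Regions that are not gene starts shifted alike, by -0.64 on chromosome 10, -0.59 on chromosome 16 and 1.37 on chromosome 13. Of 140 windows of 20 Mb with at least 30 gene starts, 114 had medians of the same sign at gene starts and elsewhere. The lowest was chromosome 10 from 120 to 140 Mb (-0.61 over 45 starts) and the highest chromosome 13 from 60 to 80 Mb (0.84 over 41).

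Calls were unevenly placed as well. On chromosome 3, 21 starts were higher and 3 lower, and 8 of the higher ones lay between 140 and 160 Mb, where the window's median was 0.73. On chromosome 13, 7 were higher and 0 lower, on chromosome 16, 0 and 4, and on chromosome 10, 0 and 2. By library, the median deviation of chromosome 13 starts was 0.20, 0.50 and 0.29 in EHF+CDX1 cells, and that of chromosome 10 starts was -0.14, -0.39 and -0.01, largest in replicate 2 in both cases. With each level centred on its 20-Mb window, 103 starts were called, 51 higher and 52 lower, in place of 99 and 23. Calls shared by both fits numbered 59, which is 48.4% of the first and 57.3% of the other. TLE4, RASEF, SYT1 and DSEL were among those still called after centring, with adjusted p from 3.37e-08 to 0.00672, and so was HNF4G (0.0152). KLF5, DPYSL3, MPHOSPH6, ADAMTS15, C16orf46 and C10orf88 were not (0.0773 to 0.757). The assay counts DNA fragments, so a more open chromosome stretch and a stretch with more DNA copies in the EHF+CDX1 line cannot be told apart.

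**Figure D5:**
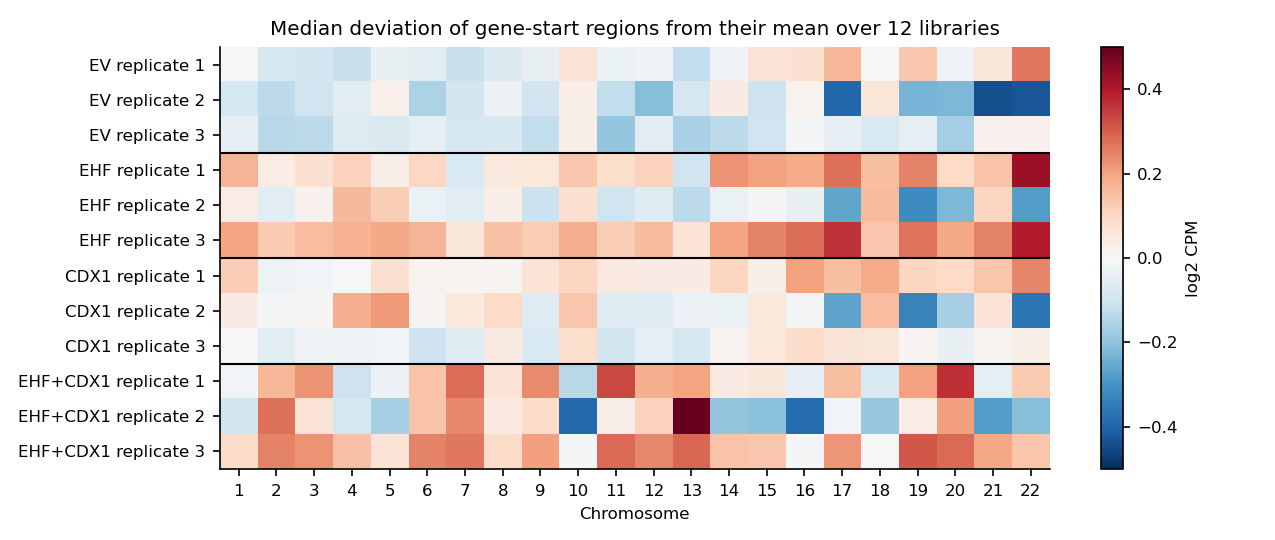
Median over gene starts of log2 CPM minus each start's mean over the 12 libraries, by chromosome (x) and library (y); red is above and blue below that mean, on a log2 CPM scale that ends at 0.5 either way. Chromosome 13 is red and chromosomes 10 and 16 blue in EHF+CDX1 replicate 2, and replicate 2 of EV, EHF and CDX1 is blue on chromosomes 17, 19 and 22.

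Neither factor alone changed a gene start past the threshold. In EHF against EV, 0 gene starts were called, against 0.00995% of all regions, and 486 had an unadjusted p under 0.05 (4.13%, against 4.96% of all regions). DESeq2 also called 0. Among all regions edgeR called 3, and these lay in none of the classes used here, with 0 called elsewhere in genes and 0 outside genes. The median change was 0.15 at gene starts against 0.01 over all regions, but with scaling by library totals both turned negative, to -0.42 and -0.50. Those totals include the counts of the introduced genes and mitochondrial matches. With EHF and CDX1 exons and mitochondrial matches left out, and TMM kept, the medians were 0.13 and 0.0059. The smallest p-values belonged to TMEM94, TMEM161B and TRAPPC13, with adjusted p from 0.666 to 0.712 in edgeR's quasi-likelihood test. TMEM161B, a membrane protein, had 3.29, 4.14 and 9.02 CPM in EV and 14.6, 18.3 and 14.6 in EHF libraries, without overlap, but also 11.54, 13.5 and 16.6 in CDX1 libraries. TMEM94, a magnesium transporter of the endoplasmic reticulum, had 3.29, 3.45 and 6.01 CPM in EV and 9.15, 15.8 and 17.4 in EHF libraries.

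In CDX1 against EV, 0 gene starts were called, as were 0% of all regions, and 363 had an unadjusted p under 0.05 (3.09%, against 3.81% of all regions). DESeq2 called 0 here too. DECR1 came first, with 20.2, 18.3 and 17.7 CPM in CDX1 against 3.29, 8.29 and 3.01 in EV libraries (change 1.78, adjusted p = 0.432, edgeR's quasi-likelihood test). MARS2, the mitochondrial methionyl-tRNA synthetase, had 0 counts in each EV library and was listed with 2.37 to 7.24 CPM in CDX1 libraries (adjusted p = 0.487). PLK4, the kinase that starts centriole duplication, had 2.20, 4.14 and 7.52 CPM in EV and 13.5, 18.8 and 13.0 in CDX1 libraries (adjusted p = 0.915). The CPM of CDX1 and EV libraries did not overlap at any of the 3. At MARS2 the 2 counts of CDX1 replicate 3 lie under the floor of 3, so 0 counts in EV replicate 3 cannot be placed below them. All comparisons with EV share its 3 libraries, so a start that is low in EV stands out in each of them.

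Against the lines with a factor alone, EHF+CDX1 cells changed at a similar number of starts. Against EHF cells, 165 gene starts were called (1.40%, against 4.35% of all regions), 125 higher (3.65% of all regions were) and 40 lower (0.7% of all regions), and 1194 had an unadjusted p under 0.05 (10.1%, against 19.6%). CpG-poor starts made up 90 of the 165, or 4.02% of those tested, and CpG-rich starts 75, or 0.787%. Of the 125 higher starts, 104 held no more than 3 counts in any EHF library, as did 957 of the 1100 higher regions overall. By class these were 64 of the 74 higher CpG-poor starts and 40 of the 51 higher CpG-rich starts. Against CDX1 cells, 104 were called (0.884%, against 2.6% of all regions), 84 higher and 20 lower (2.06% and 0.541% of all regions), and 1172 had an unadjusted p under 0.05 (9.96%, against 17.5%). Of the 104, 44 were CpG-poor (1.96%) and 60 CpG-rich (0.630%). Among the 84 higher starts, 67 held no more than 3 counts in any CDX1 library, as did 536 of the 620 higher regions overall. By class these were 31 of the 37 higher CpG-poor starts and 36 of the 47 higher CpG-rich starts. Regions so low in the line compared with could enter the test through a high level in another line, so the shares by CpG class are a description and not a result. The median change was 0.02 against EHF and 0.11 against CDX1 cells. Without EHF+CDX1 replicate 2, 11 gene starts were called in each comparison. These comparisons share the EHF+CDX1 libraries with each other and with the comparison to EV.

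The highest changes against EHF cells were at DACH1, SYT1, ZNF736, ZNF571, DSEL and HNMT, and against CDX1 cells at ARHGAP32, ZNF571, ZNF736, ZNF223, ZNF420 and TLE4. HNMT, the enzyme that inactivates histamine, had 1, 0 and 0 counts in EHF and 8, 57 and 3 in EHF+CDX1 libraries, a ratio of 43.2 (7.49 to 1731). ARHGAP32, a GTPase-activating protein, had 0 counts in each CDX1 library and 6.53, 11.7 and 17.4 CPM in EHF+CDX1 libraries, at least 4.53-fold higher against the floor (adjusted p = 5.88e-06, edgeR's quasi-likelihood test). The ZNF genes belong to a family with similar copies, so their counts are less certain. At all starts of such genes called higher in these comparisons, the line compared with held no more than 3 counts in any library, and they too could enter the test through a high level in another line.

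The lowest changes against EHF cells were at TBCD, WNT16, ZDHHC6, GGA3, ADAM19 and MLKL. WNT16, a secreted Wnt ligand, had 11, 11.4 and 7.31 CPM in EHF and 2.37, 2.48 and 2.49 in EHF+CDX1 libraries, a change of -2.00 (adjusted p = 0.0145, edgeR's quasi-likelihood test). MLKL, the effector of necroptosis, had 13.7, 7.31 and 8.23 against 4.16, 1.58 and 3.32 CPM, a change of -1.78 (adjusted p = 0.045). Against CDX1 cells the lowest were ADAM19, CUEDC2, ZDHHC6, NKX6-1, DNER and SDCCAG8. NKX6-1, a homeobox factor of pancreas and neural tube, had 17.3, 15.0 and 9.46 CPM in CDX1 and 2.97, 3.16 and 6.64 in EHF+CDX1 libraries, a change of -1.84 (adjusted p = 0.00911). DNER, a ligand of the Notch family, had 25, 27 and 18.9 against 7.72, 9.25 and 2.49 CPM, a change of -1.74 (adjusted p = 0.00265). ZDHHC6 and CUEDC2 lie in the window of chromosome 10 from 100 to 120 Mb, where the median change from EV was -0.56.

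The interaction asks whether adding EHF moved a start differently in cells that already had CDX1 than in EV cells. Gene starts were called 4 times among 11765 (0.034%, against 0.123% of all regions), with 2 higher, KCNV1 and ARHGAP32 (0.0696% of all regions), and 2 lower, ADAM19 and KIF1B (0.0531%). At an unadjusted p under 0.05 there were 720 gene starts (6.12%, against 9.88% of all regions). ADAM19, a membrane metalloprotease, had 3.29, 2.76 and 6.01 CPM in EV and 1.19, 2.93 and 4.15 in EHF+CDX1 libraries, with 9.15, 11.4 and 9.14 in EHF and 8.66, 10.1 and 15.4 in CDX1 libraries. Both lines with a factor alone lay above EV and EHF+CDX1 cells without overlap, and the latter pair overlapped. KCNV1 was at 33.2, 21.7 and 9.97 CPM in EHF+CDX1 cells at its other start and at most 3.66 CPM in the remaining 9 libraries.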

How the data were processed

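The authors mapped ATAC-seq reads to GRCh38/hg38, kept uniquely mapped reads, called peaks per sample and merged them. The submitters' processing notes name Subread 2.0.0, featureCounts 2.0.0, HOMER 4.7 and limma. The deposited table holds raw counts per region. A deposited table of log2 CPM served in an alternative only. Duplicate removal and read shifting are not given in the sources used here. Positions and sequences came from GENCODE 44 and GRCh38. The gene starts, lists and tests were chosen with earlier results of these data known.

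Regions reaching a CPM of 3 in any library (30154) were fitted with edgeR 4.0.16 in R 4.3.3 (TMM, robust quasi-likelihood F-test, two-sided, all 12 libraries). P-values were adjusted by Benjamini-Hochberg over all 30154, and an adjusted p under 0.05 was called. The common coefficient of biological variation came to 0.335. The steps were tested on simulated data. Per-library measures (log2 CPM, prior count of 2) were compared by exact permutation of the F statistic over 15400 groupings, with a smallest possible p of 6.49e-05. Intervals are at 95%, and ratios against 1 to 3 summed counts carry exact binomial intervals.

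Named gene starts were the largest called changes with a mean of at least 10 counts and no overlap (up to 12 each way against EV, 6 against the lines with a factor alone), the 3 smallest p-values where none was called, all interaction calls, the 10 highest levels, and list members that were called or had the smallest p-values. Genes named outside this rule are said to be so, or belong to a count of 5 or fewer. Regions matching mitochondrial DNA (blastn 2.17.0, at least 40 bases at 80% identity) included 3 gene starts, RGPD2, ARHGAP15 and AMY2A, left out of levels and shares. Alternatives were DESeq2 1.42.0, limma 3.58.1, other filters and scalings, each library left out, and a replicate block. Centring within windows and leaving out replicate 2 of every line were chosen after seeing the data.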

Additional observations from a re-analysis of the deposited data

Results flagged for a closer look

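At 4 gene starts the change on adding EHF differed between cells with and without CDX1, by edgeR's quasi-likelihood test of the interaction. On the log2 scale the difference was -3.42 at ADAM19 (SE 0.75, adjusted p = 0.0186), 4.94 at KCNV1 (SE 1.13, adjusted p = 0.0348), -5.68 at KIF1B (SE 1.36, adjusted p = 0.0453) and 7.75 at ARHGAP32 (SE 1.88, adjusted p = 0.0483). The last 3 are fitted against lines at or near 0 counts and give no fold. KIF1B, a kinesin motor gene, had 1, 1 and 0 counts in EV, 9, 2 and 10 in EHF, 10, 4 and 4 in CDX1, and 1, 3 and 1 in EHF+CDX1 libraries. ARHGAP32 had 1, 2 and 1 counts in EV, 3, 1 and 0 in EHF, 0 in each CDX1 library, and 11, 52 and 21 in EHF+CDX1 libraries. Over 22 other settings, ADAM19 and KCNV1 kept their call in 11 each and KIF1B and ARHGAP32 in 8 each, with no change of direction. None of the 4 was called without EHF+CDX1 replicate 2.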

How the results depend on the processing

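No called gene start named here changed direction under any alternative run, but medians over all gene starts did. With library totals as scaling the median change went from 0.15 to -0.42 for EHF and from 0.07 to -0.61 for CDX1 against EV, and limma-trend on the deposited log2 CPM took EHF+CDX1 against EV from 0.19 to -0.03. Library totals include the counts of the introduced genes and mitochondrial matches. With these regions left out and TMM kept, the medians were 0.13 for EHF and 0.08 for CDX1 against EV. Centring within windows gave -0.07 in place of 0.02 against EHF and -0.01 in place of 0.11 against CDX1. The 122, 165 and 104 gene starts called in EHF+CDX1 against EV, EHF and CDX1 and the 4 of the interaction became 74, 80, 59 and 1 with a CPM filter in 3 libraries, 10, 22, 9 and 0 by DESeq2, 0, 1, 4 and 0 by limma-trend on the deposited log2 CPM, and 12, 8, 10 and 2 without replicate 2 of every line. With library totals as scaling, the first 3 counts became 3, 43 and 34, and limma-voom with quantile normalisation gave 160 against CDX1. Leaving out 1 library gave 9 to 186 calls against EV (9 without EHF+CDX1 replicate 2, 61, 20 and 46 without EV replicates 1 to 3, 186 without EHF replicate 2), 11 to 260 against EHF (11 and 260 without EHF+CDX1 replicates 2 and 3, and 89, 56 and 86 without the EHF replicates), 11 to 159 against CDX1 (11 and 159 without EHF+CDX1 replicates 2 and 3, and 52, 19 and 47 without the CDX1 replicates) and 0 to 9 in the interaction (0 without EV replicate 1, CDX1 replicate 3 or EHF+CDX1 replicate 2, up to 9 if EHF+CDX1 replicate 3 is left out). EHF and CDX1 against EV had 0 calls throughout. The cause of these shifts was not tested.

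Centring within windows gave 51 higher and 52 lower against EV, 112 and 60 against EHF, and 60 and 34 against CDX1. The share at gene starts lay 5.07 to 6.17 points above EV with 1 library left out but 2.91 below over all counts, passing the threshold without EHF replicate 1 (6.17), CDX1 replicate 2 (5.24) or EHF+CDX1 replicate 3 (5.07), and the ETS measure, 0.0073 above EV, took either sign (-0.0062 to 0.0213), passing without EHF+CDX1 replicate 3 (-0.0039).

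Lines share replicate numbers in the labels, which do not say what a number marks. Deviations of 18 same-numbered pairs correlated at -0.01 to 0.31, 5 of them over 0.1, and 12 of 12 libraries correlated best with their own number. The serial numbers in the sample titles also run through the 4 lines of each replicate number in turn. Both are hints only and neither says what a number marks, so the samples were taken to share only a number. With a replicate block, 306 gene starts were called against EV, 301 against EHF, 227 against CDX1 and 18 in the interaction. The depth, with 4 to 26 counts at the median gene start, limits what could be detected in EV cells most.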

Other observations

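Further gene starts called in EHF+CDX1 against EV fell outside the naming rule and were picked after their values were seen. NR4A2, an orphan nuclear receptor, had 2, 2 and 2 counts in EV and 25, 95 and 10 in EHF+CDX1 libraries (change 2.91, adjusted p = 0.000664, edgeR's quasi-likelihood test). SPRY2, an inhibitor of receptor tyrosine kinase signalling, had 3, 4 and 1 against 23, 139 and 12 (change 2.85, adjusted p = 0.000291), and JUNB, an AP-1 subunit, had 4, 1 and 0 against 12, 44 and 14 (change 2.45, adjusted p = 0.0250). At all 3 the EHF+CDX1 libraries lay above EV, with the most counts in replicate 2, the deepest library. YAP1, the effector of Hippo signalling, had 2, 4 and 1 against 16, 45 and 18 (change 2.26, adjusted p = 0.0173).

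SQLE, an enzyme of cholesterol synthesis, had 8, 5 and 3 counts in EV and 26, 83 and 15 in EHF+CDX1 libraries (change 1.54, adjusted p = 0.0462), and ACSS2, which makes acetyl-CoA from acetate, had 6, 9 and 8 against 30, 109 and 29 (change 1.5, adjusted p = 0.0258). Starts of 3 neighbouring scramblase genes on chromosome 3, PLSCR1, PLSCR2 and PLSCR4, were called higher, in a window whose median change was 0.73. Among lower starts, TCF7L1, a transcription factor of the Wnt pathway, had 6, 9 and 8 against 2, 6 and 4 (change -2.15, adjusted p = 0.0413), and MCC, named for its mutation in colorectal cancer, had 5, 18 and 2 against 3, 6 and 1 (change -2.44, adjusted p = 0.0153). Raw counts overlapped at both, and replicate 2 of EHF+CDX1 cells was sequenced more deeply than any EV library.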
